A study of Arabidopsis thaliana with 12 samples.

Results

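The introns described here were already retained in an appreciable share of transcripts in wild-type Arabidopsis thaliana seedlings. They are the intron bins that the authors listed as changed in at least one of 2 mutants and whose retained fraction in wild type (WT) was 10% or more. By that rule there were 451 introns among 3481 listed intron bins, or 13%, and they lay in 403 host genes out of 2630. The members were chosen by the WT fraction and by the authors' calls against WT, so the levels and directions below are a description and carry no test of their own. The authors cut each gene at its annotated splice sites into bins, so that an intron is measured apart from its exons, and the retained fraction is the authors' share of junction reads that keep the intron, 1 value per genotype combined over its libraries.

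Polyadenylated RNA of whole seedlings was sequenced in 12 libraries, 4 each of prmt5-5, picln-1 and WT. The titles of the WT libraries begin with Col, and their genotype label is WT. All seedlings grew at 22 °C for 10 days with 12 h light and 12 h dark, a regime given for 9 days as the treatment, and the sample labels describe the mutants by allele name only. The series' own design line names a cold treatment, which no sample label gives, and the sample labels were followed. The same 4 WT libraries served as control for both mutants. The labels do not state whether libraries were separate cultures, so the authors' p-values measure only the spread between these libraries, which may be technical. In whole seedlings, fewer cells of a type and less RNA per cell cannot be told apart. Sequencing depth is unknown, because the tables hold no counts and no value per library, so no error can be attached to a fraction. The adjusted p-values given for introns belong to the authors' log2 change of the bin, called bin usage here. They are not tests of the retained fractions printed beside them.

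The mutated genes were read first. In picln-1, the authors' deposited table gives pICln a log2 expression change of -3.48 (adjusted p = 1.65e-94), and pICln is not listed in prmt5-5. PRMT5 is not listed for expression in either mutant. According to the authors' deposited table, its intron 20 of 22 was retained at 81.0% in prmt5-5, 0.870% in picln-1 and 0% in WT, and it is therefore not a member.

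PRMT5 is a protein arginine methyltransferase that modifies Sm proteins, the ring of proteins at the core of spliceosomal small nuclear ribonucleoproteins (snRNPs). pICln is a chaperone that holds Sm proteins during assembly of that ring. Intron retention is the most frequent kind of alternative splicing in plants. A retained coding intron often brings a premature stop codon into the reading frame, and such transcripts may be degraded by nonsense-mediated decay or be kept in the nucleus.

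The sequences of 10 coding introns with large changes show what is kept when these introns stay in the transcript. They are from the RefSeq TAIR10.1 genome, written 5' to 3' on the transcribed strand, and the capitals mark the first stop codon in the reading frame that enters the intron. The first 3 had the largest rises in prmt5-5 among coding introns of at most 300 bases listed there: ARP9 intron 11 of 17 (chr5:17472110-17472184, plus strand), FP3 intron 1 of 4 (chr5:25433288-25433386, plus strand) and intron 1 of 2 of AT5G65205 (chr5:26051526-26051674, minus strand). All 3 begin with GT but depart from the usual GTAAG further in.
ARP9: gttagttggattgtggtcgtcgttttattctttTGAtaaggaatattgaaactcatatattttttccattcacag
FP3: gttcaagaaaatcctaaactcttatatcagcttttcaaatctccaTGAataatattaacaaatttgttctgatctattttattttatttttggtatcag
AT5G65205: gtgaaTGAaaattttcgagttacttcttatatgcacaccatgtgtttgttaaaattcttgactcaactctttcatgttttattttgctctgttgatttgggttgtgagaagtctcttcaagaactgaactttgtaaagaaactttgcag

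The next pair fell in prmt5-5: PUB4 intron 3 of 4 (chr2:9847911-9848147, minus strand) and intron 5 of 6 of AT1G31950 (chr1:11477446-11477556, plus strand). Both open with GTA after an exon that ends in AG.
PUB4: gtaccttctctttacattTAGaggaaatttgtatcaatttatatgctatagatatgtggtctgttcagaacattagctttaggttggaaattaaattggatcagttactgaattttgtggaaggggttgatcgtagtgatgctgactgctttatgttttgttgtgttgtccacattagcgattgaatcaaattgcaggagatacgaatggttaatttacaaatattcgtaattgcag
AT1G31950: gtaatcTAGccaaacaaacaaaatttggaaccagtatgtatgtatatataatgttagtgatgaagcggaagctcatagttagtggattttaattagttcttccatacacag

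The largest rises among introns listed in picln-1, under the same limits of place and length, were Cpn60beta4 intron 9 of 12 (chr1:9073121-9073196, minus strand), intron 2 of 8 of AT1G72640 (chr1:27347662-27347769, minus strand) and BGLU8 intron 8 of 12 (chr3:23215790-23215853, plus strand). The Cpn60beta4 intron has no stop codon in its frame and so no capitals. Its length of 76 bases is not a multiple of 3, so its retention would shift the frame downstream.
Cpn60beta4: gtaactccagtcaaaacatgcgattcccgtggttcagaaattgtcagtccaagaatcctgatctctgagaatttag
AT1G72640: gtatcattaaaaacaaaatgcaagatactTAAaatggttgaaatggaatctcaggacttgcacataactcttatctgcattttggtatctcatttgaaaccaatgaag
BGLU8: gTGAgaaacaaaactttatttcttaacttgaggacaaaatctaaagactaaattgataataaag

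Another pair is from the 8 largest falls listed in picln-1: INO80 intron 15 of 23 (chr3:21204626-21204786, plus strand) and RAP2.7 intron 5 of 8 (chr2:12227014-12227119, minus strand). The RAP2.7 intron had a lower retained fraction but a higher bin usage in picln-1, with a log2 usage change of 1.37 (adjusted p = 0.0394 in the authors' deposited table).
INO80: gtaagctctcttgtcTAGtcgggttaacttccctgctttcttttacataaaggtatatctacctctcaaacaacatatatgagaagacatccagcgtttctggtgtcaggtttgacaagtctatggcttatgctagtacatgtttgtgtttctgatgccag
RAP2.7: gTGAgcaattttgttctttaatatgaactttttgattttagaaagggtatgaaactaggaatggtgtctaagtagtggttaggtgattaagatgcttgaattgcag

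Most of these introns were retained more in prmt5-5, and both directions occurred in each mutant. Of the 451 introns, 385 were listed in prmt5-5, 346 higher and 39 lower, so that 10.1% of the listed ones were lower. In picln-1, 128 were listed, 90 higher and 38 lower, so that 29.7% were lower. Over all bins tested in prmt5-5, 2.82% were listed higher and 0.0634% lower. Over all bins tested in picln-1, 0.427% were listed higher and 0.0513% lower. Those shares cover intron bins and bins named as exon parts together. The deposited value is headed PIR/PSI, so for exon parts a higher value may mean more inclusion and not more retention. The rule selected on these same calls, so the counts of members are not read against those shares.

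Over all listed bins, exon parts included, 3406 were listed in prmt5-5, 541 in picln-1 and 260 in both. Of the members, 62 were listed in both mutants, 323 in prmt5-5 alone and 66 in picln-1 alone, and the same WT libraries enter both calls. Under a stricter limit of adjusted p below 0.01 in the authors' deposited tables, 226 introns were higher and 12 lower in prmt5-5, and 41 were higher and 15 lower in picln-1. That adjusted p is for bin usage, while the direction counted follows the fraction. The 12 lower in prmt5-5 include introns of RAP2.7 and NEK2, whose bin usage was higher there. Of the 66 members not listed in prmt5-5, 46 lay above WT and 20 below. Of the 323 not listed in picln-1, 197 lay above WT, 125 below and 1 level with it.

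The median retained fraction over all members was 37.4% in prmt5-5, 20.9% in picln-1 and 16.2% in WT. The median change was 19.1 percentage points in prmt5-5, with a range of -44.5 to 76.8, and 3.35 points in picln-1, with a range of -32.1 to 45.7. Retention reached 50% or more for 131 introns in prmt5-5, 34 in picln-1 and 9 in WT. The other 3030 listed introns, under 10% in WT, had medians of 12.8% in prmt5-5, 4.11% in picln-1 and 2.08% in WT.

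The 346 introns listed higher in prmt5-5 had medians of 42.9% in prmt5-5, 20.8% in picln-1 and 15.8% in WT. The 39 listed lower there had medians of 10.0% in prmt5-5, 16.8% in picln-1 and 21.5% in WT. The 90 introns listed higher in picln-1 had medians of 31.7% in prmt5-5, 36.3% in picln-1 and 15.8% in WT. The 38 listed lower there had medians of 20.9% in prmt5-5, 9.09% in picln-1 and 21.4% in WT. Each mutant's listed groups thus differed most in the mutant that listed them, as the choice of the groups fixes.

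**Figure D1:**
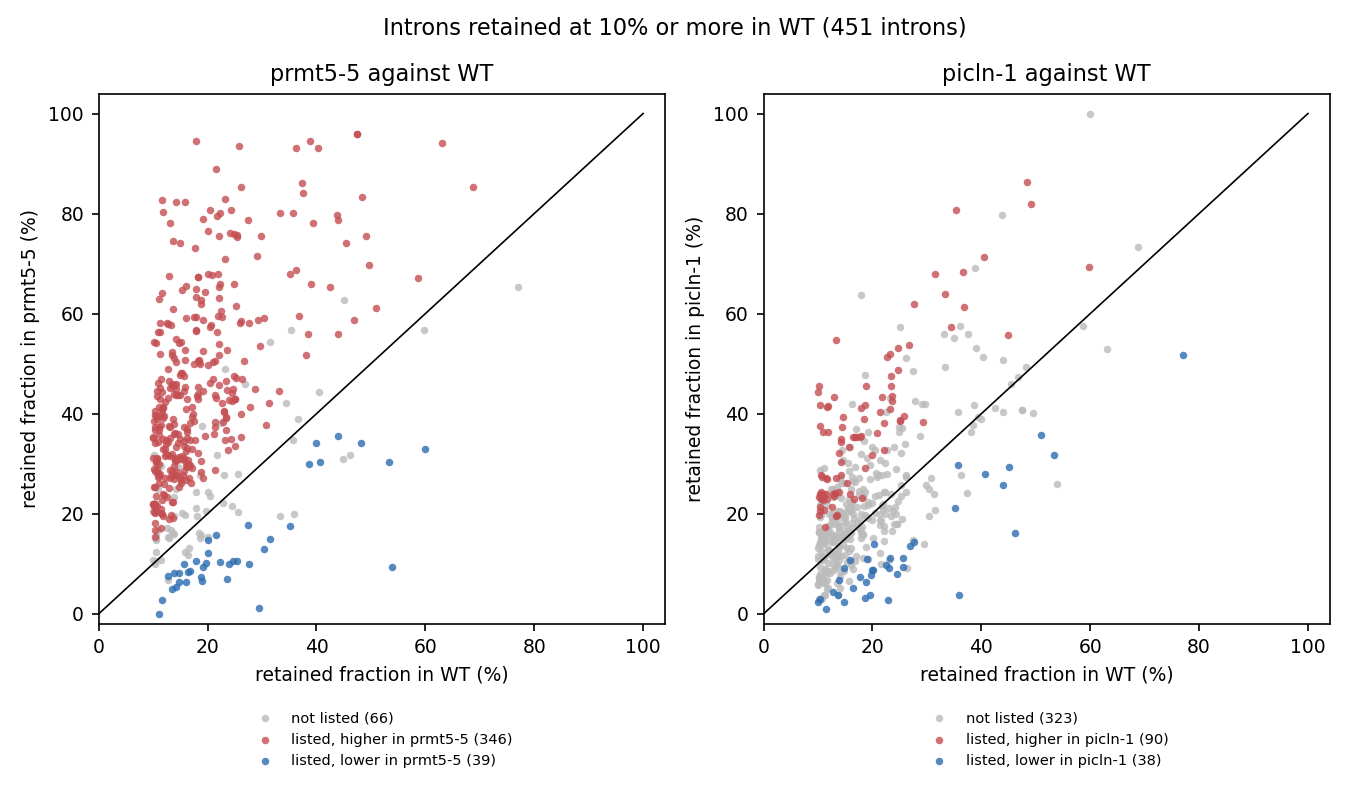
Retained fraction (%) of each of the 451 introns in prmt5-5 (left panel) or picln-1 (right panel) on the y axis against WT on the x axis, with equality drawn as a line. Listed introns are coloured by direction, 346 higher and 39 lower in prmt5-5 and 90 higher and 38 lower in picln-1, and introns not listed in that mutant are grey.

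Falls were few among introns that WT retained less. Of the other listed introns, 2845 were higher and 2 lower in prmt5-5, and 353 were higher and 4 lower in picln-1. An intron must change by more than 5 points to be listed, so one retained at 5% or less in WT cannot be listed as lower. Among other listed introns with 5% to under 10% in WT, 503 were higher and 2 lower in prmt5-5, and 100 were higher and 4 lower in picln-1. A fall listed there must remove more than 5 of fewer than 10 points, while a rise has no such bound. The limit thus holds down the number of falls there too, and nothing is read from these counts.

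Within the members, the share of listed introns that were lower stood at 4.97% in prmt5-5 and 15.7% in picln-1 for WT levels of 10% to under 15%. It was 10.0% in prmt5-5 and 34.8% in picln-1 from 15% to under 20%, and 12.2% in prmt5-5 and 36.4% in picln-1 from 20% to under 30%. From 30% to under 50% the shares were 21.6% in prmt5-5 and 41.2% in picln-1. At 50% or more, where 9 introns lay, 3 of 7 listed were lower in prmt5-5 and 3 of 4 in picln-1. The WT value enters the rule, the strata and each change, so this order is a description of the listed introns.

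**Figure D2:**
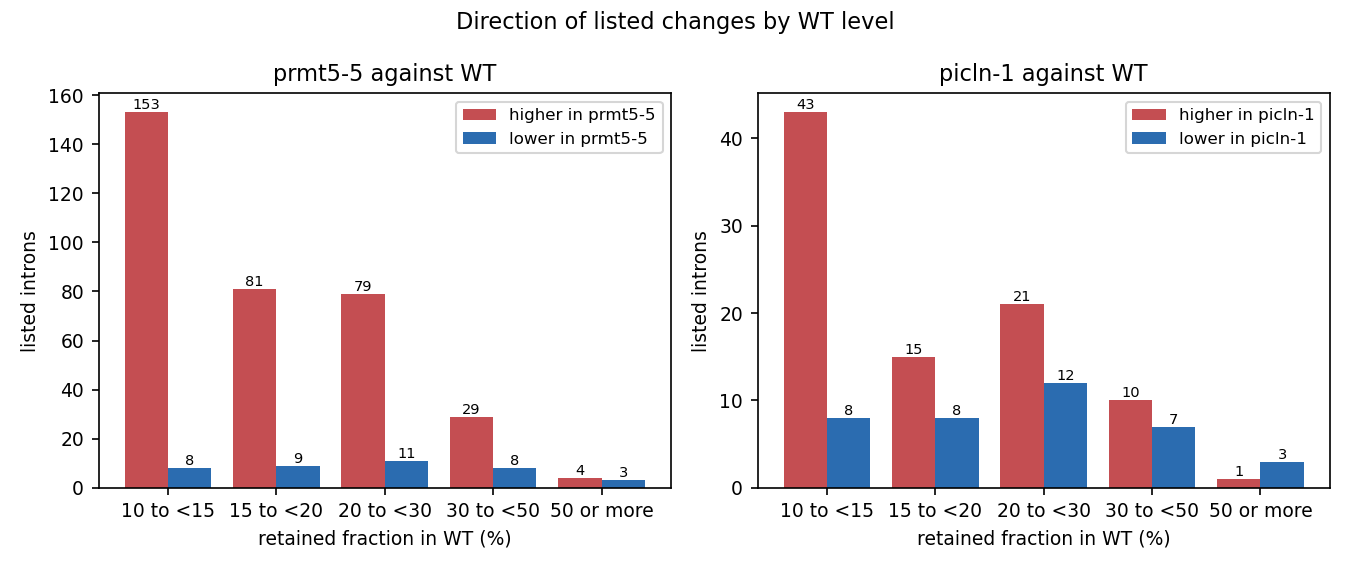
Number of member introns listed higher and lower in prmt5-5 (left panel) and picln-1 (right panel), by retained fraction in WT (%) on the x axis. In prmt5-5 the counts run from 153 higher and 8 lower at 10% to under 15% to 4 higher and 3 lower at 50% or more, and in picln-1 from 43 higher and 8 lower to 1 higher and 3 lower.

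The largest rises in prmt5-5 took introns kept in a minority of WT transcripts to most transcripts. TGA9, a bZIP transcription factor, kept intron 4 of 12 at 94.6% in prmt5-5, 16.9% in picln-1 and 17.8% in WT, with an adjusted p of 9.98e-20 for prmt5-5 in the authors' deposited table. ARP9, an actin-related protein, kept the intron printed above at 82.7% in prmt5-5, 41.3% in picln-1 and 11.6% in WT, listed in both mutants (adjusted p = 1.32e-13 in prmt5-5 and 0.0300 in picln-1 in the authors' deposited tables). FP3, a farnesylated protein, kept its first intron at 80.2% in prmt5-5, 41.6% in picln-1 and 11.9% in WT, also listed in both. In these last 2 genes picln-1 lay between prmt5-5 and WT, whereas in TGA9 it lay beside WT.

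AT5G65205, annotated as a Rossmann-fold protein, had 82.3% in prmt5-5, 23.1% in picln-1 and 14.3% in WT. CYP72A13, a cytochrome P450, had 93.6% in prmt5-5, 39.6% in picln-1 and 25.7% in WT for intron 2 of 4. KEA6, a potassium efflux antiporter, had 82.3% in prmt5-5, 15% in picln-1 and 15.8% in WT for intron 3 of 19. MSRB4, a methionine sulfoxide reductase that repairs oxidised proteins, had 78.1% in prmt5-5, 15.6% in picln-1 and 13% in WT. Also among the 8 largest rises was KICP-02, a kinesin-like motor gene, whose last intron had 89.0% in prmt5-5, 17.7% in picln-1 and 21.5% in WT. AT5G65205, KEA6, MSRB4 and KICP-02 are listed in prmt5-5 and not in picln-1.

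The largest falls in prmt5-5 included an intron-named bin of SDG25, a SET domain protein, at 9.30% in prmt5-5, 25.9% in picln-1 and 53.8% in WT (adjusted p = 0.0554 in the authors' deposited table). That bin matches no RefSeq intron, so its place in the gene is not given. AT1G29030, annotated as an API5-like protein, had 1.10% in prmt5-5, 14% in picln-1 and 29.4% in WT for intron 8 of 16 (adjusted p = 0.0571 in the authors' deposited table). PUB4, a RING/U-box protein, fell to 9.89% in prmt5-5 and 14.3% in picln-1, against 27.7% in WT, and was listed in both (adjusted p = 0.0129 in prmt5-5 and 0.0459 in picln-1 in the authors' deposited tables). AT1G31950, a terpenoid cyclase family gene, had 12.9% in prmt5-5, 25% in picln-1 and 30.3% in WT. NEK2, a NIMA-related kinase, had 32.9% in prmt5-5, 100% in picln-1 and 60% in WT for 5' UTR intron 2. The NEK2 bin was listed in prmt5-5 only, and the authors' bin usage there was higher while the fraction was lower, so its direction depends on the measure. Usage and fraction differed in direction for 5 listed introns of prmt5-5, in RAP2.7, NEK2, PGLCT, AT1G25175 and ZTL, and for 1 of picln-1, in RAP2.7. AT1G53780, a proteasome ATPase gene, had 6.93% in prmt5-5, 16.6% in picln-1 and 23.6% in WT for 5' UTR intron 1 of 16 (adjusted p = 5.29e-06 for prmt5-5 in the authors' deposited table).

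Among introns listed in picln-1 the largest rise was in Cpn60beta4, a chaperonin subunit, with 56.7% in prmt5-5, 80.7% in picln-1 and 35.3% in WT (adjusted p = 8.65e-05 for picln-1 in the authors' deposited table). The largest excess of picln-1 over WT, in points, belonged to an intron not listed there. That was intron 1 of 2 of AT3G58720, a RING/U-box gene, with 56.4% in prmt5-5, 63.6% in picln-1 and 17.9% in WT, listed in prmt5-5. AT1G72640, a Rossmann-fold protein, had 45.9% in prmt5-5, 54.6% in picln-1 and 13.4% in WT and was listed in both (adjusted p = 7.36e-10 in prmt5-5 and 3.62e-09 in picln-1 in the authors' deposited tables). AT5G46510, a TIR-NBS-LRR disease resistance gene, had 20.5% in prmt5-5, 44.3% in picln-1 and 10.1% in WT for its 3' UTR intron. AT1G58602, an LRR and NB-ARC resistance gene, had 83.3% in prmt5-5, 86.3% in picln-1 and 48.4% in WT. The 3' UTR introns of AT1G18610, a kelch repeat gene, and AT5G41330, a BTB/POZ gene, were also among the largest rises. They stood at 54.3% and 31.8% in prmt5-5, 67.9% and 45.5% in picln-1, and 31.5% and 10.1% in WT. Resistance genes of this family have close copies, so the assignment of reads among them is uncertain.

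The largest fall in picln-1 was INO80, a chromatin-remodelling helicase, with 20% in prmt5-5, 3.70% in picln-1 and 35.8% in WT (adjusted p = 4.86e-06 for picln-1 in the authors' deposited table). EMB3103, a pentatricopeptide repeat protein, had 21.5% in prmt5-5, 7.91% in picln-1 and 24.4% in WT, and LDA, a limit dextrinase that debranches starch, had 28% in prmt5-5, 9.30% in picln-1 and 25.6% in WT. In EMB3103 and LDA prmt5-5 lay within 3 points of WT, and neither is listed there. RAP2.7, an AP2-type transcription factor, had 35.6% in prmt5-5, 25.8% in picln-1 and 44.0% in WT and was listed in both, with bin usage in the opposite direction to the fraction. AT1G63420, an O-glucosyltransferase-like gene, had 31.8% in prmt5-5, 16.2% in picln-1 and 46.2% in WT for intron 3 of 6.

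The highest WT levels belonged to AT1G10890, annotated as an arginine/glutamate-rich protein, with 65.3% in prmt5-5, 51.8% in picln-1 and 77.0% in WT, listed lower in picln-1. AT2G15580, a RING/U-box protein, had 85.4% in prmt5-5, 73.2% in picln-1 and 68.8% in WT. MPK17, a MAP kinase, had 94.1% in prmt5-5, 53.0% in picln-1 and 63.1% in WT for intron 5 of 9. AT2G15580 and MPK17 were listed in prmt5-5 only. AT1G13190, an RNA-binding protein gene, had 56.7% in prmt5-5, 69.3% in picln-1 and 59.8% in WT for its 5' UTR intron, listed higher in picln-1.

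Splicing regulators were among the hosts. For comparison, 399 of 22228 protein-coding genes with an annotated intron, or 1.80%, held a member. Over all bins tested, exon parts included, 2.82% were listed higher and 0.0634% lower in prmt5-5, and 0.427% higher and 0.0513% lower in picln-1. Over all members, 346 were higher and 39 lower in prmt5-5, and 90 higher and 38 lower in picln-1. The list counts below rest on few introns and on the calls that chose the members, so nothing is read from them about a list. Of 29 SR and hnRNP-like genes looked up, 7 held a member, with 4 introns higher and none lower in prmt5-5, and none higher and 4 lower in picln-1. AT3G48120, annotated as a serine/arginine-rich splicing factor, was not on the list. It held 2 members, 1 listed higher in prmt5-5 and 1 listed higher in picln-1. SR proteins select splice sites, and several of their own genes are known to be alternatively spliced in plants. SR45a kept intron 5 of 7, in the 3' UTR, at 78.1% in prmt5-5, 39.4% in picln-1 and 39.4% in WT (adjusted p = 7.73e-08 for prmt5-5 in the authors' deposited table). SCL33 had 61.2% in prmt5-5, 35.8% in picln-1 and 51.0% in WT for intron 4 of 6, listed higher in prmt5-5 (adjusted p = 0.0375) and lower in picln-1 (adjusted p = 0.0122) in the authors' deposited tables. PTB1, a polypyrimidine tract-binding protein, had 10.8% in prmt5-5, 0.958% in picln-1 and 11.5% in WT, listed in picln-1 only (adjusted p = 1.80e-05 in the authors' deposited table).

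RS40 had 46.0% in prmt5-5, 13.6% in picln-1 and 26.9% in WT, listed in picln-1. RS31 had 28.8% in prmt5-5, 19.9% in picln-1 and 21.3% in WT, and SCL30A had 19.5% in prmt5-5, 12.9% in picln-1 and 11.8% in WT, both listed in prmt5-5. The glycine-rich RNA-binding gene CCR1, also called GRP8, had 12.4% in prmt5-5, 10.8% in picln-1 and 15.9% in WT, listed in picln-1. Besides SCL33, 1 other intron was listed in opposite directions: intron 5 of 19 of GLT1, a glutamate synthase, with 25.3% in prmt5-5, 9.09% in picln-1 and 14.8% in WT.

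Of 30 snRNP and spliceosome genes looked up, 3 held a member, all 3 lower in prmt5-5 and 2 lower in picln-1, beside the same 1.80% of genes and the same shares of all bins. The splicing genes PRP40B and SUA, described below, were not on that list, and their members were listed higher in prmt5-5. AT1G60900, annotated as a U2 snRNP auxiliary factor large subunit, kept intron 4 of 12 at 30.3% in prmt5-5, 31.8% in picln-1 and 53.3% in WT (adjusted p = 0.101 in prmt5-5 and 0.0244 in picln-1 in the authors' deposited tables). AT1G54380, annotated as a spliceosome protein-like protein, had 17.6% in prmt5-5, 21.2% in picln-1 and 35.1% in WT for intron 1 of 3, listed in both. PRP39, a U1 snRNP factor in yeast, had 10.3% in prmt5-5, 30.1% in picln-1 and 22.4% in WT, listed in prmt5-5. AT1G60900 and AT1G54380 lay below WT in both mutants, and their retained introns are long, at 630 and 877 bases. The PRP39 intron, lower in prmt5-5 only, is short, at 84 bases.

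Of 27 clock genes, 4 held a member, with 2 introns higher and 2 lower in prmt5-5, and 2 higher and 1 lower in picln-1. ELF3, part of the evening complex, had 30.4% in prmt5-5, 28% in picln-1 and 40.7% in WT for intron 2 of 3, listed lower in both (adjusted p = 0.0869 in prmt5-5 and 9.23e-05 in picln-1 in the authors' deposited tables). JMJD5, a jumonji-domain clock factor, had 45.7% in prmt5-5, 32.8% in picln-1 and 22.1% in WT, and PRR3, a pseudo-response regulator, had 44.7% in prmt5-5, 43.4% in picln-1 and 23.5% in WT, both listed higher in both mutants. ZTL, a light-sensing F-box protein, had 8.51% in prmt5-5, 10.7% in picln-1 and 16.8% in WT, listed in prmt5-5 with an adjusted p of 0.146 in the authors' deposited table and with bin usage in the other direction.

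Of 27 flowering genes, 2 held a member. MAF1, the MADS-box floral repressor also called FLM, kept intron 2 of 6 at 85.4% in prmt5-5, 27.4% in picln-1 and 26.1% in WT (adjusted p = 2.29e-10 for prmt5-5 in the authors' deposited table). FLK, a KH-domain RNA-binding protein that lowers FLC expression, kept 5' UTR intron 1 of 6 at 76.0% in prmt5-5, 53.1% in picln-1 and 24.8% in WT, listed in both (adjusted p = 8.95e-22 in prmt5-5 and 1.41e-04 in picln-1 in the authors' deposited tables). None of 8 genes of nonsense-mediated decay and poly(A) processing held a member.

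**Figure D3:**
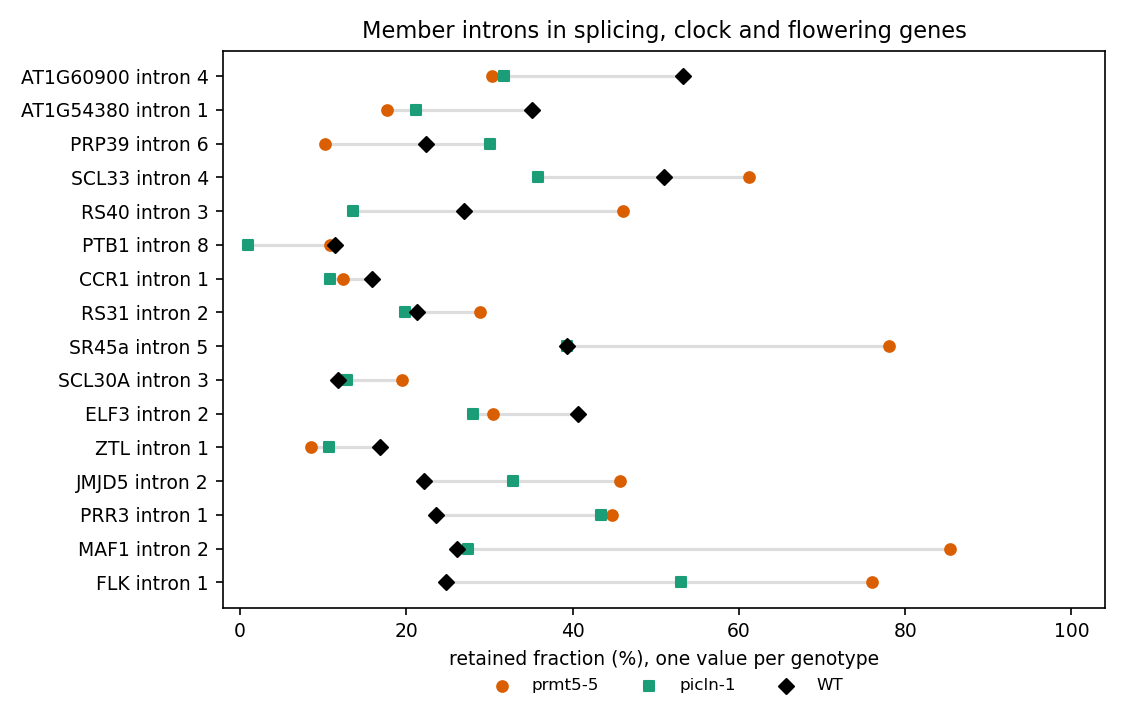
Retained fraction (%) of the 16 members in the splicing, clock and flowering genes looked up, with 1 point per genotype: prmt5-5, picln-1 and WT. In MAF1 the prmt5-5 point stands at 85.4% with picln-1 at 27.4% and WT at 26.1%, while in AT1G60900 the mutants stand at 30.3% and 31.8% and WT at 53.3%.

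Several members could lie in 1 gene: 363 hosts held 1 and 40 held 2 or more, together 88 introns. These are not independent, since they share a transcript. Of 27 genes with at least 2 members listed in prmt5-5, 19 had all of them higher, none had all lower and 8 had both directions. In picln-1 there were 6 such genes, 4 with all higher and 2 with both.

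Of the 8 genes with both directions in prmt5-5, GLR3.4, a glutamate receptor, had intron 6 of 6 at 79.5% in prmt5-5, 21.6% in picln-1 and 21.7% in WT. Its intron 4 of 6 was at 7.37% in prmt5-5, 19.7% in picln-1 and 18.7% in WT. BT2, a BTB and TAZ domain protein, had intron 2 of 4 at 44.3% in prmt5-5, 15.4% in picln-1 and 11.7% in WT, and intron 4 of 4 at 7.61% in prmt5-5, 15.7% in picln-1 and 12.8% in WT. AT1G73350, an ankyrin repeat gene, had intron 3 of 5 at 75.4% in prmt5-5, 25.7% in picln-1 and 29.9% in WT, and intron 4 of 5 at 6.57% in prmt5-5, 19.5% in picln-1 and 18.9% in WT. In all 3 genes a member rose and another fell in the same mutant while picln-1 stayed within 5 points of WT. These 3 were chosen after their values were seen.

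FC2, the LAMMER kinase AFC2 that phosphorylates SR proteins, and RPP4, a TIR-NBS-LRR resistance gene, each held 4 members. The FC2 introns stood between 21.5% and 50% in prmt5-5, 14.2% and 43.4% in picln-1, and 10.8% and 17.6% in WT. All 4 were listed higher in prmt5-5, and intron 6 of 11 was listed in both, with 46.6% in prmt5-5, 43.4% in picln-1 and 13% in WT. The RPP4 introns stood between 65.8% and 84.1% in prmt5-5, 37.3% and 56.0% in picln-1, and 24.9% and 37.5% in WT, all listed in prmt5-5 only. BGLU8 and BGLU5, both beta glucosidases with close copies, held 3 members each, as did AT3G56160, a bile acid symporter family gene, and AT4G02120, a CTP synthase. BGLU5 intron 10 of 11 was the exception among these genes, with 34.1% in prmt5-5, 38.9% in picln-1 and 39.9% in WT, listed lower in prmt5-5.

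**Figure D4:**
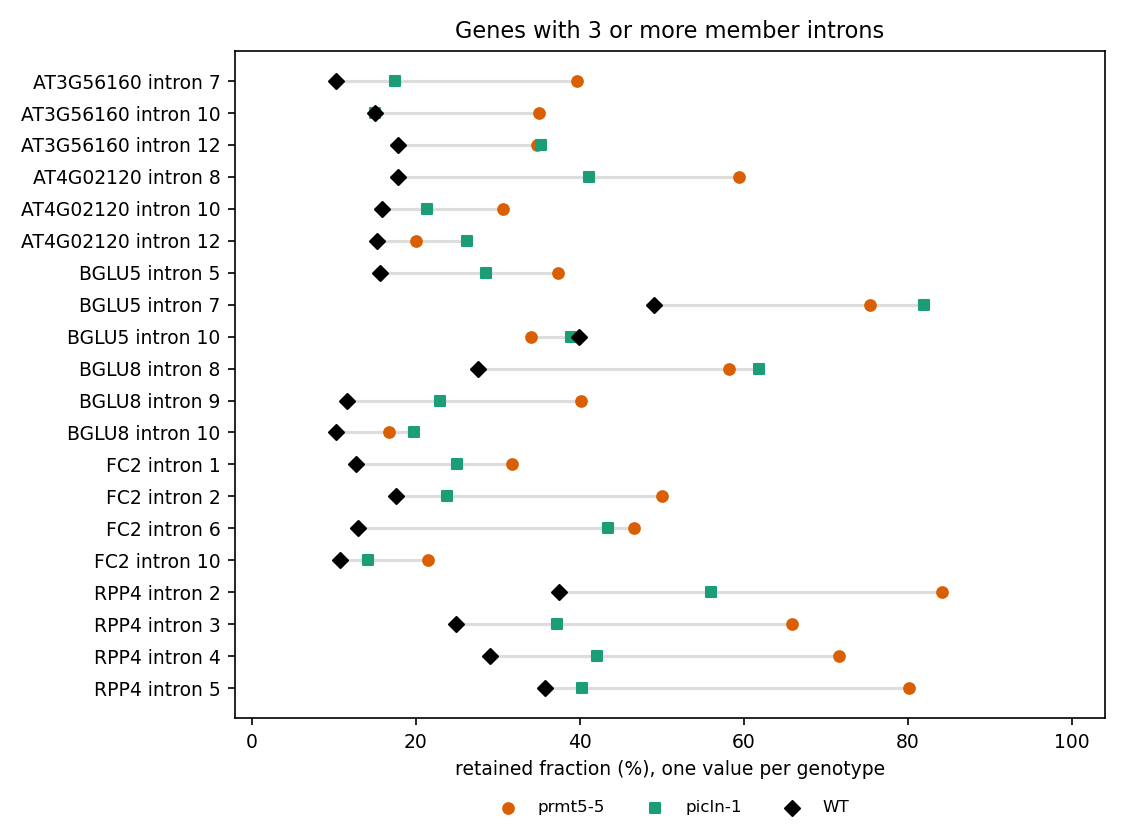
Retained fraction (%) of the 20 member introns in the 6 genes with 3 or more members, with 1 point per genotype: prmt5-5, picln-1 and WT. Of these, 19 lie higher in prmt5-5 than in WT, and BGLU5 intron 10 lies lower.

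Features of the introns other than the WT fraction and the calls were read from the RefSeq annotation for the 449 members that match one of its introns. Retention in an annotated transcript is not independent of the rule, which left out bins named as exon parts. Of those bins, 60 had an annotated retention event and 10% or more in WT, so the shares that follow depend on bin naming. Of the 449 matched members, 130 (29.0%) were already kept in an annotated transcript of the same gene. The share was 7.60% of the other listed introns, 10.1% of the unlisted introns of the same genes and 7.47% of all annotated introns. Members so annotated had medians of 38.6% in prmt5-5, 21.9% in picln-1 and 17.6% in WT. The other 319 had 36.4% in prmt5-5, 20.5% in picln-1 and 16.0% in WT. In coding sequence there were 400 members, in 5' UTRs 26 and in 3' UTRs 19, with 4 in transcripts that carry no coding sequence, and 10 overlapped another annotated gene.

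Of the 400 coding members, 365 (91.2%) hold an in-frame stop codon, close to the 91.2% of other listed introns and 89.0% of all annotated coding introns. In 3 the frame is open and kept, so that retention adds amino acids: AT1G69450, CNGC6 and HMGB1. CNGC6, a cyclic nucleotide-gated channel, had 59.2% in prmt5-5, 19.5% in picln-1 and 30.3% in WT. HMGB1, a DNA-binding high mobility group protein, had 58.1% in prmt5-5, 18.7% in picln-1 and 12.5% in WT. AT1G69450, annotated as an ERD4-like protein, had 10.5% in prmt5-5, 22.5% in picln-1 and 24.8% in WT.

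The members were somewhat longer than other introns, with a median of 121 bases, against 108 for other listed introns, 102 for unlisted introns of the same genes and 101 for all annotated introns. By direction, the medians were 118 bases for introns higher in prmt5-5, 162 for those lower in prmt5-5, 97 for those higher in picln-1 and 286 for those lower in picln-1. Introns of 300 bases or more made up 42.1% of the introns lower in prmt5-5 and 47.4% of those lower in picln-1, against 18.6% of those higher in prmt5-5 and 22.2% of those higher in picln-1.

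The 5' splice site was scored in bits over 9 bases, 3 of exon and 6 of intron, by its likeness to annotated introns, whose most frequent bases spell CAGGTAAGT. The median score was 5.35 for members, against 5.13 for other listed introns, 7.02 for unlisted introns of the same genes and 6.95 for all annotated introns. It was 4.97 for members higher in prmt5-5 and 7.94 for those lower in prmt5-5, 5.91 for those higher in picln-1 and 7.09 for those lower in picln-1. Among the sequences printed above, the 9 bases around the ARP9 site are agaGTtagt (score 3.41) and those around the INO80 site are aagGTaagc (score 10.3), with the first 2 intron bases in capitals. These differences carry no test, since introns of a gene and of a list are not replicates.

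**Figure D5:**
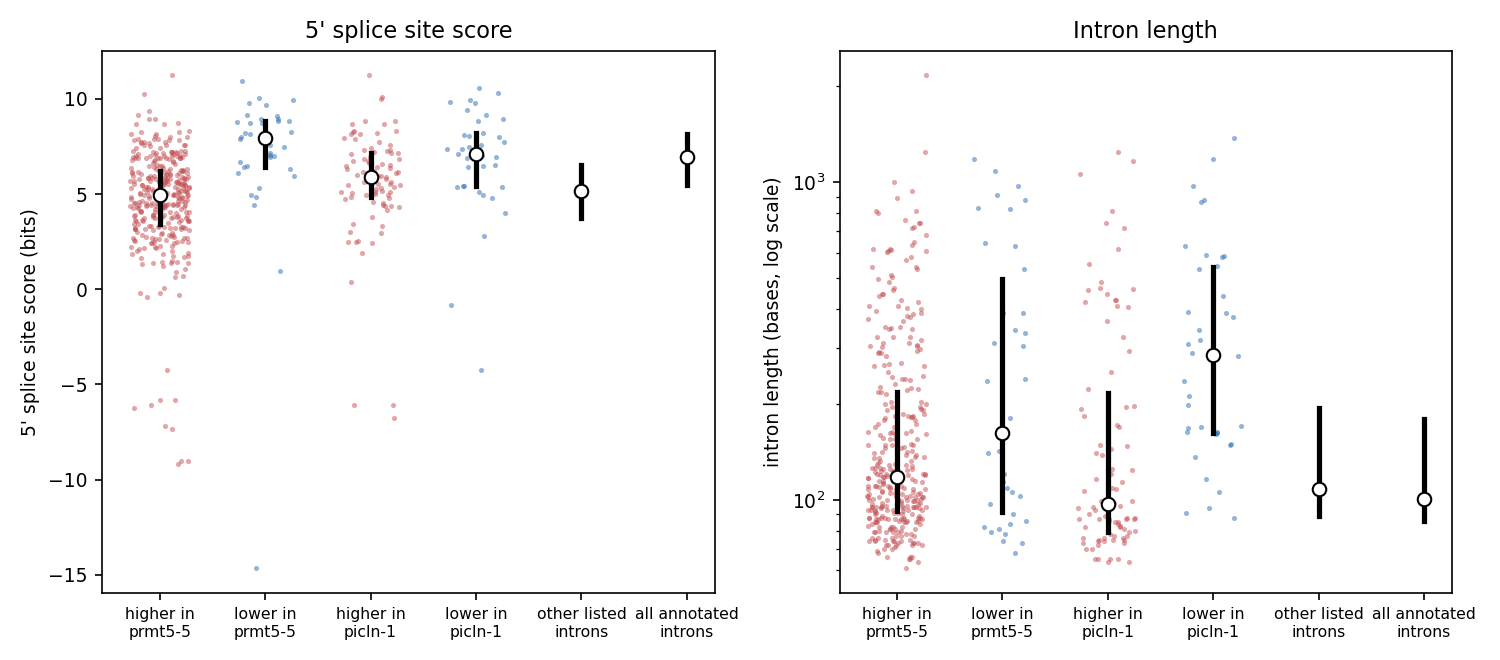
Score of the 5' splice site in bits (left panel) and intron length in bases on a log axis (right panel) for members listed higher or lower in each mutant, with open circles for medians and bars for the middle 50% of introns. Median scores are 4.97 for introns higher and 7.94 for introns lower in prmt5-5, and 5.91 and 7.09 for those higher and lower in picln-1, and the last 2 columns give the other listed introns and all annotated introns.

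Introns that begin with GC made up 12 members (2.67%), against 0.793% of other listed introns and 1.11% of all annotated introns. They included SCL33, with the site cagGCaagt, and SUA, a splicing regulator named as a suppressor of abi3-5, with 66.0% in prmt5-5, 53.2% in picln-1 and 39.0% in WT at the site cagGCttgt. The start ATATCCTT or GTATCCTT of the minor, U12-type spliceosome, read on the transcribed strand only, was found in 2 of 449 members (0.445%), 1 of 3025 other listed introns (0.0331%), 10 of 3153 unlisted introns of the same genes (0.317%) and 281 of 131098 annotated introns (0.214%). Both members were listed lower in prmt5-5: intron 4 of AT1G73350, which begins atatcctttctt and ends accatatatcac, and intron 6 of 10 of AT3G59310 with 10.6% in prmt5-5, 15.1% in picln-1 and 17.9% in WT. The match is a description of these letters and was looked at after the values were seen.

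Expression of the host genes was listed more often in prmt5-5 than in picln-1. Over all genes tested, 4.99% were listed higher and 4.15% lower in prmt5-5, and 0.698% higher and 0.996% lower in picln-1. Of the 403 hosts, 101 (25.1%) were higher and 6 (1.49%) lower in prmt5-5, against 288 higher and 32 lower among 2367 genes that hold another listed intron. In picln-1, 1 host was higher and 8 were lower, against 6 higher and 11 lower among those 2367. The 403 and the 2367 genes overlap, since together they cover 2630 genes, so they are not separate groups. Of 320 hosts of introns higher in prmt5-5, 91 were higher and 4 lower in expression, and of 39 hosts of introns lower in prmt5-5, 10 were higher and 1 lower. These groups share 8 genes that hold members of both directions, and 4 of the 10 are among them. Of the 31 hosts with a lower and no higher intron, 6 were higher in expression. The same libraries gave both calls.

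The largest host rises in prmt5-5 were TGA9, with a log2 expression change of 2.64, and AT1G12730, a GPI transamidase subunit, with 2.51 in the authors' deposited table. The AT1G12730 intron was at 39.2% in prmt5-5, 5.08% in picln-1 and 11.8% in WT. PRP40B, a pre-mRNA-processing protein, had an expression change of 2.09 in the authors' deposited table, with its intron 15 of 27 at 46.2% in prmt5-5, 15.3% in picln-1 and 10.9% in WT. CSLB03, a cellulose synthase-like gene, fell by 1.03 on the log2 scale in prmt5-5 and by 0.83 in picln-1 in the authors' deposited tables, with its intron at 67.9% in prmt5-5, 22.1% in picln-1 and 20% in WT.

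In picln-1 the only host listed higher was UMAMIT47, a transporter, with a log2 expression change of 0.61 in the authors' deposited table. Its introns 2 and 3 were at 52.8% and 58.8% in prmt5-5, 42.5% and 38.3% in picln-1, and 23.6% and 29.2% in WT. AT1G52000, a mannose-binding lectin, fell by 1.09 on the log2 scale in picln-1 and by 0.70 in prmt5-5 in the authors' deposited tables. Its intron was at 34.6% in prmt5-5, 12.6% in picln-1 and 15.6% in WT. By the authors' deposited table for picln-1, SCPL13, a serine carboxypeptidase-like gene, fell by 0.89 on the log2 scale and BGAL8, a beta-galactosidase, fell by 0.63. The BGAL8 intron was at 67.9% in prmt5-5, 55.2% in picln-1 and 35.1% in WT, listed in prmt5-5 only.

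At the limit of the rule stood 3 introns with exactly 10% in WT. RABG3B, a RAB GTPase, had 35.1% in prmt5-5 and 5.88% in picln-1, COAD had 22.0% in prmt5-5 and 11.7% in picln-1, and AT3G12020 had 35.3% in prmt5-5 and 5.79% in picln-1. Next above it, HINT3 had 22.0% in prmt5-5, 11.1% in picln-1 and 10.0% in WT, and FMO GS-OX3 had 31.2% in prmt5-5, 13.2% in picln-1 and 10.0% in WT. Just outside, RDH2 had 7.41% in prmt5-5, 17.3% in picln-1 and 9.97% in WT, and SWI3C had 28.6% in prmt5-5, 15.1% in picln-1 and 9.91% in WT.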

How the data were processed

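Polyadenylated RNA of 12 Arabidopsis seedling libraries was compared by the authors as prmt5-5 against WT and picln-1 against WT. Per the submitters' processing notes the reads were aligned with TopHat to TAIR10, and the sources used here do not name the program that counted and tested them. Per the file headers, the authors computed the log2 changes, p-values and adjusted p-values of genes and bins, and base 2 was taken because the smallest listed gene change is then 0.58. The retained fraction per genotype was also deposited by the authors and was multiplied by 100 here. The deposited description lists bins with adjusted p under 0.15 that changed by over 5 points, and genes with adjusted p under 0.05. No listed gene changed by less than 0.58 on the log2 scale, so an unlisted gene may still have an adjusted p under 0.05. A feature that is not listed may thus be unchanged, changed by less or untested.

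No count per library could be used, so no test was made here and the authors' calls were counted. Higher and lower follow the fraction, while the adjusted p-values of introns belong to bin usage. The number of features tested was worked back from the authors' adjusted and raw p-values, a step that gave the right number in 4 of 4 made-up tables. Introns were matched to RefSeq TAIR10.1 by equal start and end, and 449 of 451 matched. Intron numbers, frame and region follow the first annotated transcript. Splice sites were scored with weight matrices from 129367 annotated GT-AG introns. Bins named as exon parts were left out by the rule, including 151 with an annotated retention event, 60 of them at 10% or more in WT. Genes were named by rule: the 8 largest changes per mutant and direction, the 5 highest WT levels, 5 gene lists, the limit of the rule, genes with 3 or more members, opposite directions, and the 5 largest host expression changes per mutant and direction, and most of these are described. The rest are not reported here. The members and lists were chosen with earlier results of these data known. Python 3.11.15, numpy 2.4.6, pandas 2.3.3, Biopython 1.88 and matplotlib 3.10.9 were used.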

Additional observations from a re-analysis of the deposited data

How the results depend on the processing

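With a WT limit of 20% there were 159 introns, 112 higher and 22 lower in prmt5-5 and 32 higher and 22 lower in picln-1. Fewer introns pass that limit by construction. With an adjusted p below 0.05 the introns lower in prmt5-5 numbered 25, and with a change above 10 points 18, against 39 as reported. The median change in picln-1 was 3.35 points over all members and 12.6 points over those listed there. The 5' splice site score of members was 0.22 bits above that of other listed introns and differed by -1.66 bits from unlisted introns of the same genes, a reversal that comes from the comparison set, and the excess in UTRs of 6.09 points over other listed introns was 0.0952 points over those unlisted introns. The other 29 values kept their direction, and counts stayed within 1.5 times, including 2 alternatives chosen after seeing the data: without introns that overlap another gene or match none, and with 1 intron per host gene. No paired analysis was possible because each genotype has 1 combined fraction and the tables hold the authors' comparisons, and for the same reason no refit without a replicate was run. Depth is unknown, so the precision of a fraction such as 100% or 0% cannot be stated.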
